A study of Homo sapiens with 4 samples.

Results

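Mitochondrial ribosomal protein mRNAs are encoded in the nucleus and were taken here by symbol: every gene named MRPL or MRPS with a number and at most 1 closing letter, plus DAP3, a GTP-binding protein of the small subunit first described in cell death. The table held 76 such genes, 47 MRPL, 28 MRPS and DAP3, among 12838 gene symbols. They were measured in RNA recovered by immunoprecipitation from LM2-4175 cells, breast carcinoma cells selected from MDA-MB-231 for metastasis to the lung, which carried a doxycycline-inducible construct of CerS4, a ceramide synthase. There were 4 groups of 1 library each: an EXOSC10 antibody in cells given doxycycline at 5 µg/mL for 48 h, the same antibody in untreated cells, control IgG in doxycycline-treated cells, and control IgG in untreated cells. All 4 groups carried the construct and were grown under puromycin and hygromycin, so doxycycline itself and CerS4 cannot be told apart, and the deposited labels name no separate cultures. The study asked how lipid metabolism alters the mRNA degradation linked to PD-L1 and Caprin-1, and its main contrast was RNA bound by EXOSC10 with and without doxycycline.

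The mitochondrial ribosome makes the few proteins encoded by mitochondrial DNA, all of them membrane subunits of the respiratory chain and ATP synthase. Its ribosomal RNAs come from mitochondrial DNA, but its proteins are translated in the cytosol and imported, so their mRNAs are ordinary nuclear transcripts that can meet the nuclear exosome. Many of the proteins have counterparts in bacterial ribosomes, while others are particular to mitochondria. EXOSC10 is a 3′ to 5′ exoribonuclease of the nuclear RNA exosome, which trims and degrades many nuclear RNAs.

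The promoters of these genes are shown first, because the letters near their start sites are a feature that the choice by symbol did not use. RefSeq promoter sequences (GRCh38.p14) covering 250 bases before and 50 bases after the start were found for 68 of the 76 members. On either strand, 3 letter strings were searched: CCGGAAG, bound by ETS-family factors, AAGATGGC, a core of the YY1 site, and the site of NRF1 (GCGC, then any base, then TGCGC), all factors known from nuclear genes of mitochondrial proteins. No match of a string was required to be free of another string. The ETS string was in 28 of 68 member promoters (41.2%), against 19.3% of 9557 promoters of protein-coding genes in the table and 10.7% of all 27305 promoters. The YY1 string was in 20 (29.4%), against 5.50% and 3.03%. The NRF1 string was in 8 (11.8%), against 11.7% and 6.28%, so it was no more frequent among the members than among the coding genes of the table. In all, 24 member promoters held none of the 3 strings.

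In 18 members the ETS string began within the 60 bases before the start, and in MRPL16, MRPL52 and MRPS12 it ran past the start. The following 5 show it, each from position -60 to -1 relative to the start, with the string in capitals on whichever strand it lies. They include MRPL33 and MRPL43, whose ratios were the highest in the main comparison below, and MRPS34, which holds the string at 2 places. MRPL57, MRPS6 and MRPL39, also among the 6 highest of that comparison, had no ETS string in the promoters searched.
MRPL33 (chr2:27771659-27771718, plus strand): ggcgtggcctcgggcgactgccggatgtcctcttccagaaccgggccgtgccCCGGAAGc
MRPL43 (chr10:100987498-100987557, minus strand): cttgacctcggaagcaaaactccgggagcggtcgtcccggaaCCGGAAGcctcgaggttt
MRPS23 (chr17:57850045-57850104, minus strand): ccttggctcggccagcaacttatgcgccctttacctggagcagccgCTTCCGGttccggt
MRPL3 (chr3:131502972-131503031, minus strand): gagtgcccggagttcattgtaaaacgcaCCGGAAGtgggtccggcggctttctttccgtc
MRPS34 (chr16:1773135-1773194, minus strand): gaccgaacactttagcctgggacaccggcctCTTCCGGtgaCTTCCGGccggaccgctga

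The YY1 string lay after the start in 15 members (22.1%), against 3.67% of the coding genes of the table, with its first base between position 7 and position 36. The first 30 transcribed bases of 5 members show this shared placement, again with the string in capitals. They include MRPS24 and MRPS30, whose EXOSC10 over IgG ratios had opposite signs in the 2 treatments, MRPS24 being lower with doxycycline and MRPS30 higher. The ratios of MRPL17 also had opposite signs, and its promoter held no YY1 string.
MRPS10 (chr6:42217832-42217861, minus strand): gggaccggcAAGATGGCggcgcggacagcg
MRPS24 (chr7:43869488-43869517, minus strand): cccgcgctccgcttggcccAAGATGGCggc
MRPS30 (chr5:44808947-44808976, plus strand): ggaatcgcgggcaAAGATGGCggcggccag
MRPS7 (chr17:75261879-75261908, plus strand): ggggtcctcgtggccagccAAGATGGCtgc
MRPS27 (chr5:72320211-72320240, minus strand): ccttttggtacgctccAAGATGGCtgcctc

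A match is only a string of letters and does not show that a factor is bound there. Summed EXOSC10 over IgG ratios are given for members with and without these strings, and their differences were not tested. Summed over the 20 members with the YY1 string, EXOSC10 over IgG was 0.71 (log2; 95% counting interval 0.54 to 0.88) with doxycycline, against 0.64 (0.54 to 0.73) over the 48 without it. For the ETS string the values were 0.62 (0.49 to 0.75) over 28 members with it and 0.68 (0.57 to 0.79) over 40 without it. Untreated, the YY1 values were 0.51 (0.31 to 0.71) with the string and 0.43 (0.31 to 0.55) without it, and the ETS values 0.32 (0.16 to 0.47) with the string and 0.54 (0.41 to 0.67) without it. In the main comparison, EXOSC10 with doxycycline over untreated, the summed ETS values were 0.14 (0.04 to 0.24) with the string and 0.08 (-0.0003 to 0.16) without it. The YY1 values there were 0.04 (-0.08 to 0.16) with the string and 0.13 (0.06 to 0.20) without it. Each pair of intervals overlapped. A start of another gene on the opposite strand lay within 500 bases upstream (or up to 100 bases into the gene) for 18 of the 68 members (26.5%), against 22.2% of coding genes of the table. One such pair joined 2 members head to head, MRPL46 and MRPS11.

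The mRNAs were thinly covered. The libraries held 5511210 estimated reads for EXOSC10 with doxycycline, 4233590 for EXOSC10 untreated, 7575130 for IgG with doxycycline and 3723290 for IgG untreated, but ribosomal RNA genes took 56.3%, 75.8%, 83.8% and 71.7% of them in that order. The members together had 9068 and 3202 reads with EXOSC10 (doxycycline and untreated) and 1447 and 1163 reads with IgG (doxycycline and untreated). A member had a median of 94.0, 38.5, 17.0 and 12 reads in the same order. Some members had fractions of reads, and the submitters' notes do not state how these arose. In the IgG libraries, 21 members with doxycycline and 31 untreated had fewer than 10 reads, so single genes are imprecise there. The deposited table keeps entries that reached 10 reads in at least 1 library, and the doxycycline EXOSC10 library held the most reads outside ribosomal RNA, so a member with few reads is most likely to be listed when it is high there. MRPL1 and MRPL54 were not analysed here. VIM, CD44 and ANXA1, expressed in the parental line, had reads in every library, while the blood markers PTPRC, CD3E and HBB had no entry analysed here, LYZ had at most 15 reads and CD68 between 26 and 195. CERS4 was not analysed here, which leaves doxycycline's action on the construct unchecked. EXOSC10 mRNA had 78 and 15 reads in the doxycycline and untreated EXOSC10 libraries, and 21 and 6 in the doxycycline and untreated IgG libraries.

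Values are given as reads and as scaled CPM, that is CPM (reads relative to the library total) scaled with TMM factors (trimmed mean of M values), which set the bulk of genes equal between libraries. Ratios of single genes, and of a gene summed with those it overlaps, are log2 ratios of scaled CPM with 0.2 CPM added. Nothing was added for ratios summed over a group of genes, nor for intervals that compare 2 libraries. Each interval covers counting error only, since the labels describe no molecular identifiers, so that copies of 1 molecule can be counted more than once, and no group has a replicate. No p-value is given for this reason. The summed level of the 76 mRNAs was 661 and 613 scaled CPM with EXOSC10, doxycycline and untreated, and 420 and 437 scaled CPM with IgG, doxycycline and untreated. Both EXOSC10 libraries stood above both IgG libraries, and the treatments lay close together within each antibody. In RNA recovered from many cells, fewer cells with a bound mRNA and less bound mRNA per cell cannot be told apart. As a share of reads outside ribosomal RNA, the same mRNAs made up 0.377% (exact binomial 95% interval 0.369 to 0.384) and 0.313% (0.302 to 0.324) with EXOSC10, doxycycline and untreated, and 0.118% (0.112 to 0.124) and 0.110% (0.104 to 0.117) with IgG.

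**Figure D1:**
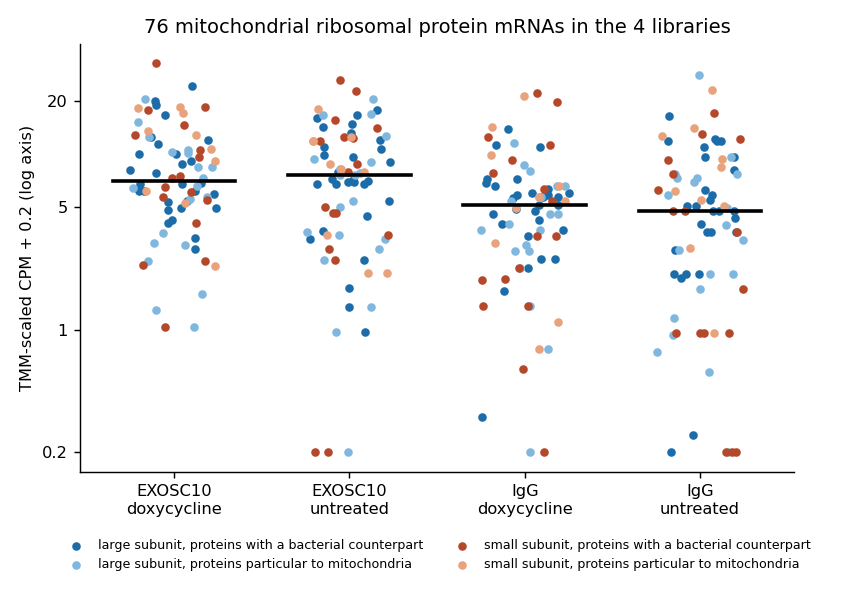
Scaled CPM plus 0.2, on a log axis, of each of the 76 mitochondrial ribosomal protein mRNAs in the 4 libraries; each point is 1 mRNA coloured by subunit class, and the black bar is the median. The medians were 6.86 and 7.36 scaled CPM (before adding 0.2) in the EXOSC10 libraries, doxycycline and untreated, and 4.93 and 4.51 in the IgG libraries; points at 0.2 had no read.

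In the main comparison, EXOSC10 with doxycycline over EXOSC10 untreated, the mitoribosomal mRNAs as a group stayed close to equality. Their summed ratio was 0.11 (0.05 to 0.17), a 1.08-fold higher level with doxycycline. A minimum of 100 reads in the 2 libraries left 52 members, of which 5 were 2-fold or more higher, against a background of 6.25% of 6579 genes, and 3 were at least 2-fold lower, against 3.91%. These shares, 9.62% and 5.77%, rest on few genes and lie near the background. The median of the 52 was 0.09 and that of all genes -0.03. Because the doxycycline library held the most reads, the minimum favours members that are high in it. Over 73 members with 20 reads, the intervals of 21 lay wholly above 0 (background 26.2%) and those of 13 wholly below (23.4%).

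MRPL33, a small protein of the large subunit with a bacterial counterpart, had the highest ratio. With EXOSC10 it had 7.59 scaled CPM (104 reads) under doxycycline and 1.15 (6 reads) untreated. With IgG it had 5.51 (19 reads) under doxycycline and 3.38 (9 reads) untreated. The untreated EXOSC10 library was the low one, below both IgG libraries, and the ratio was 2.53 (1.55 to 4.20). In GRCh38 coordinates MRPL33 spans 27771719 to 27779733 of chromosome 2. Its reads were whole. With IgG, doxycycline over untreated, it was at 0.67 (-0.51 to 2.03), an interval that includes equality.

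MRPL43 and MRPL57, large subunit proteins particular to mitochondria, came next. MRPL43 had 112 and 17 reads in the doxycycline and untreated EXOSC10 libraries, and 22 and 19 in the doxycycline and untreated IgG libraries. Its EXOSC10 ratio was 1.28 (0.59 to 2.16), and 1.42 when summed with SEMA4G, which overlaps it. MRPL57 had 87 and 14 reads with EXOSC10, doxycycline and untreated, and a ratio of 1.19 (0.42 to 2.17), but its IgG libraries, with 13 and 4 reads, were at 1.22 (-0.37 to 3.40). MRPL21, a counterpart of a bacterial large subunit protein, had 90 and 16 reads and a ratio of 1.05 (0.32 to 1.97), with 11 and 5 reads and a ratio of 0.71 (-0.88 to 2.64) in the IgG libraries. In these 3 genes the doxycycline level was between 6.35 and 8.17 scaled CPM and the untreated level between 2.68 and 3.25.

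MRPS6, a small subunit protein with a bacterial counterpart, had 142 reads in the doxycycline EXOSC10 library and 25 in the untreated one, a ratio of 1.09 (0.50 to 1.79). It overlaps SLC5A3, a myo-inositol transporter gene, and held fractions of reads. Summed with SLC5A3 the ratio was -0.11, so a difference of MRPS6 itself is not shown. MRPL39 was at 0.84 (0.13 to 1.71), just below the 2-fold bound, with fractions of reads.

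On the lower side stood MRPS24, the counterpart of the bacterial small subunit protein S3. With EXOSC10 it had 3.87 scaled CPM (53 reads) under doxycycline and 11.7 (61 reads) untreated, while with IgG it had 7.54 (26 reads) under doxycycline and 0.751 (2 reads) untreated. The EXOSC10 ratio was -1.55 (-2.15 to -1.04), and the IgG pair ran the other way, at 3.02 (1.33 to 6.45) on 28 reads. MRPS24, on chromosome 7 (43866558 to 43869517), had whole reads.

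MRPL12, the stalk protein that helps translation factors reach the ribosome, had 65 and 55 reads in the doxycycline and untreated EXOSC10 libraries, a ratio of -1.12 (-1.69 to -0.60). MRPL37, particular to mitochondria, had 138 and 107 reads and a ratio of -1.01 (-1.40 to -0.64). It overlaps SSBP3, and summed with it the ratio was -0.88, short of 2-fold. MRPL16, at -0.96 (-1.48 to -0.49), and MRPL9, at -0.83 (-1.24 to -0.45), were just inside the 2-fold bound, followed by MRPS5 at -0.69 (-1.12 to -0.29). All of these, apart from MRPL37, have bacterial counterparts, as do 22 large subunit and 10 small subunit members among the 52 with 100 reads.

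**Figure D2:**
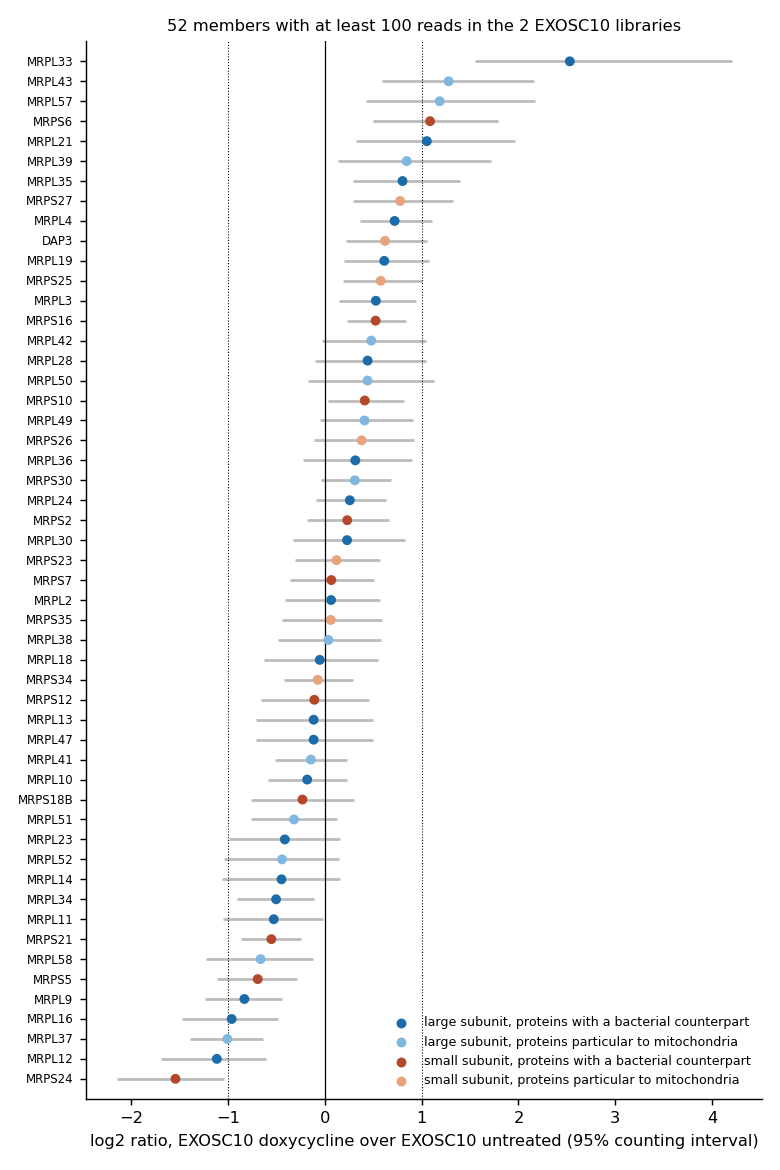
Log2 ratio of scaled CPM, EXOSC10 doxycycline over EXOSC10 untreated, of the 52 members whose reads in both libraries together reached 100, ordered by ratio; points are coloured by subunit class, bars are 95% counting intervals and dotted lines mark 2-fold. MRPL33 at 2.53 stands apart on the higher side and MRPS24 at -1.55 on the lower side, while most members lie within 2-fold.

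The 3 members with the most reads in each subunit class lay within 2-fold, apart from MRPL37. MRPS16, the member with the most reads, had 32.5 scaled CPM (446 reads) with doxycycline and 22.6 (118 reads) untreated in the EXOSC10 libraries, a ratio of 0.52 (0.23 to 0.83). MRPL4 was at 0.72 (0.36 to 1.11), MRPL3 at 0.53 (0.14 to 0.94), MRPS25 at 0.58 (0.18 to 1.00) and MRPS10 at 0.41 (0.03 to 0.82), all higher with doxycycline beyond counting error. MRPS21 was lower, at -0.55 (-0.87 to -0.25). MRPS30, at 0.31 (-0.04 to 0.68), MRPL24, at 0.26 (-0.10 to 0.63), MRPL41, at -0.15 (-0.52 to 0.23), and MRPS34, at -0.07 (-0.43 to 0.29), had intervals that include equality. DAP3 had 247 and 61 reads with EXOSC10, doxycycline and untreated, and 48.2 and 36.9 reads with IgG, which include fractions of reads. Its EXOSC10 ratio was 0.62 (0.22 to 1.06), and 0.19 when summed with YY1AP1, the gene it overlaps on chromosome 1 (155687948 to 155739010 for DAP3).

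Some members had no full read in the untreated EXOSC10 library. MRPS11, counterpart of a bacterial small subunit protein, had 86 reads with doxycycline and 0 untreated, at least 10.9-fold higher against a floor of 3 reads in the untreated library. Its IgG libraries held 1.36 reads with doxycycline and 2 untreated. MRPS11 had 4 entries and fractions of reads, and its head-to-head neighbour MRPL46 had 15 and 4 reads with EXOSC10. MRPL48, with 11.5 reads, and MRPS18C, with 11.4, were at least 1.46-fold and 1.45-fold higher. Each of these had fewer than 100 reads in the 2 libraries.

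By subunit class, the large subunit gave summed EXOSC10 ratios of doxycycline over untreated of 0.08 (-0.02 to 0.17) for the 29 mRNAs of proteins with a bacterial counterpart and -0.01 (-0.14 to 0.11) for the 20 of proteins particular to mitochondria. The 20 include MRPS30 and MRPS18A, which sit in the large subunit despite their symbols. For the small subunit the ratio was 0.09 (-0.03 to 0.21) over 17 mRNAs with a bacterial counterpart and 0.40 (0.25 to 0.56) over the 10 particular to mitochondria. In this last class 0 of 7 members with 100 reads reached 2-fold, and among the 7 MRPS27, a pentatricopeptide repeat protein, was highest at 0.78 (0.29 to 1.32). The interval of 0.40 lies above the other 3 classes' values, but the classes were set side by side with results of these data known and this was not tested.

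**Figure D3:**
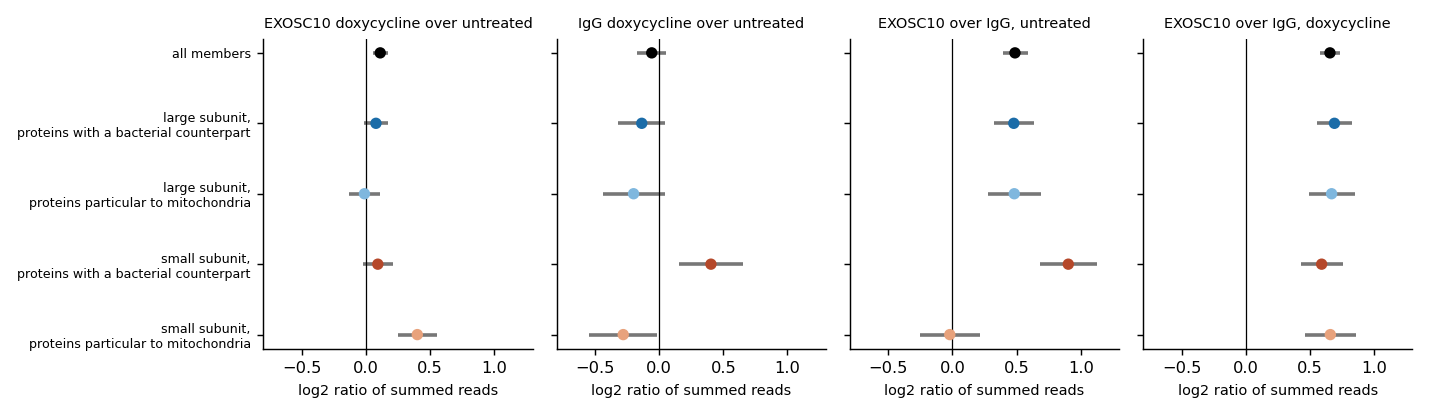
Log2 ratio of summed reads after TMM scaling for all 76 members and for the 4 subunit classes (29, 20, 17 and 10 mRNAs) in each comparison of 2 libraries; bars are 95% counting intervals. The 2 panels of EXOSC10 over IgG lie to the right of 0 except for the small subunit proteins particular to mitochondria untreated, at -0.02.

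With control IgG, doxycycline over untreated, the summed ratio of the 76 mRNAs was -0.06 (-0.17 to 0.05), which includes equality. At this depth 4 members reached 100 reads. MRPS30 had 39 reads with doxycycline and 74 untreated, a ratio of -1.28 (-1.90 to -0.72), and was the 1 member at least 2-fold lower (background 3.51% of 3022 genes), while 0 were 2-fold higher (2.91%). The other 3 were MRPS21 at 0.60 (-0.01 to 1.25), MRPS16 at 0.38 (-0.17 to 0.95) and MRPS34 at -0.11 (-0.63 to 0.40). Summed small subunit proteins with a bacterial counterpart stood at 0.40 (0.16 to 0.65), and the other 3 classes between -0.28 and -0.14.

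EXOSC10 over IgG gave larger summed ratios for these mRNAs than doxycycline over untreated did. With doxycycline their summed ratio was 0.66 (0.58 to 0.74), a 1.58-fold higher level with EXOSC10, and untreated it was 0.49 (0.39 to 0.59), or 1.40-fold. With doxycycline 43 members had 100 reads, and 13 of them were 2-fold or more higher, against 14.5% of 6269 genes, and 0 were 2-fold lower, against 26.4%. Untreated, 3 of 10 members were at least 2-fold higher (background 5.50% of 3602 genes) and 0 lower (36.1%). The medians were 0.73 for members and 0.06 for all genes with doxycycline, and 0.46 and -0.45 untreated. All genes include many with more reads, which lay lower in this comparison, and among genes with no more reads than the richest member, a restriction chosen after the data were seen, the medians were 0.23 with doxycycline and -0.20 untreated. The members had more reads with EXOSC10 than with IgG, so the minimum of 100 reads favours members that are high with EXOSC10. At 20 reads, 22 of 73 members were 2-fold higher and 1 lower with doxycycline, and 23 of 62 higher and 4 lower untreated. No 2-fold share of all genes is given at 20 reads, and the shares above, at 100 reads, are no background for these counts. At 20 reads the medians of members and all genes were 0.72 and 0.31 with doxycycline, and 0.57 and 0.06 untreated.

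With a minimum of 20 reads, the intervals of 34 of 73 members lay wholly above 0 with doxycycline (background 34.0%) and those of 2, MRPL17 and MRPS24, wholly below (26.1%). Untreated, 25 of 62 lay wholly above (23.7%) and 4 wholly below (29.8%), namely MRPL20, MRPL43, MRPS15 and MRPS30.

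Members shared a sign in both treatments less often than all genes did, 39 of 62 (62.9%) against 74.9%, a difference that was not tested, and those that did were mostly above 0. Among the 62 with 20 reads in both pairs of libraries, 37 (59.7%) were above 0 in both treatments, against 39.8% of 8342 genes, and 2, MRPS18B and MRPS34, were below 0 in both (3.23%, against 35.1%). The 2 pairs share no library. The 8342 genes were not matched to the members for reads, and a member had a median of 17.0 (doxycycline) and 12 (untreated) reads with IgG. These shares are therefore not compared at like depth. At least 2-fold higher in both were 7 members (11.3%, against 5.93% of genes): MRPL9, MRPL47, MRPS6, MRPS7, MRPS9, MRPS12 and MRPS23. MRPL47 overlaps ACTL6A and MRPS7 overlaps GGA3 and MIF4GD, and summed with those genes they were at -0.20 and 0.87 with doxycycline and at 0.36 and 0.15 untreated.

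Among the members with the highest EXOSC10 over IgG ratios, MRPS12, a counterpart of the bacterial protein at the decoding centre, had 97 reads with EXOSC10 and 4 with IgG under doxycycline, and 40 and 9 untreated. Its ratios were 2.42 (1.21 to 4.51) with doxycycline and 1.13 (0.11 to 2.41) untreated. MRPL9 had 9.77 scaled CPM with EXOSC10 and 4.51 with IgG under doxycycline, and 17.6 and 6.01 untreated, ratios of 1.08 (0.35 to 1.98) and 1.52 (0.77 to 2.41). MRPS23, of the small subunit and particular to mitochondria, was at 1.25 (0.58 to 2.07) and 1.12 (0.30 to 2.10). MRPS7, counterpart of a bacterial protein of the small subunit head, was at 1.24 (0.57 to 2.06) and 1.38 (0.51 to 2.45).

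MRPL4 and MRPS27 were high with doxycycline, at 1.88 (1.29 to 2.61) and 1.46 (0.76 to 2.33), but untreated they were at -0.15 (-0.71 to 0.42) and 0.35 (-0.51 to 1.3). MRPL24 was at 1.47 (0.90 to 2.17) and 0.49 (-0.11 to 1.14); it overlaps HDGF, an mRNA with many more reads, and the pair summed was at -1.44 and -1.51. MRPS6 was at 2.46 (1.43 to 4.08) and 2.39 (0.67 to 5.79), but at -0.34 and 0.15 when summed with SLC5A3. MRPL37 was at 0.25 (-0.33 to 0.89) with doxycycline and at 1.57 (0.87 to 2.41) untreated, but at -1.47 and -0.62 when summed with SSBP3, so its direction turned. Untreated, MRPL41 was at 0.81 (0.17 to 1.53) and MRPL34 at 0.44 (-0.17 to 1.09). MRPL34 overlaps ABHD8 and was at 1.06 when summed with it.

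Summing with overlapping genes turned the sign of EXOSC10 over IgG in 7 of the 17 overlapping members with doxycycline and in 5 of 17 untreated. Of the 13 members called higher with doxycycline, MRPL24, MRPL49, MRPS6 and MRPS7 overlap another gene of the table, and none of these 4 was 2-fold higher as a sum. MRPL49 was at 1.14 alone and at 0.02 with SYVN1, and MRPS25 was at 0.92 alone and at -0.13 with NR2C2. For doxycycline over untreated with EXOSC10 the sign turned in 4 of 17, namely MRPL2, MRPL20, MRPL24 and MRPS6, and with IgG in 6 of 17. In the EXOSC10 pair, MRPS25 summed with NR2C2 was at 0.45, and MRPS16 summed with DNAJC9-AS1 at 0.60.

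The lowest members with doxycycline were MRPS34, at -0.31 (-0.70 to 0.08), MRPS18B, at -0.29 (-0.90 to 0.33), MRPL34, at -0.29 (-0.77 to 0.21), MRPL23, at -0.28 (-0.97 to 0.43), MRPS21, at -0.14 (-0.53 to 0.27), and MRPL13, at 0.04 (-0.67 to 0.83). Each of these intervals includes equality. As sums with overlapping genes, MRPL34 was at 0.16, so its sign turned, and MRPL23, with MRPL23-AS1, at -0.26. MRPS34 was also low untreated, at -0.35 (-0.84 to 0.13), with 17.0 and 17.9 scaled CPM in the EXOSC10 libraries (doxycycline, untreated) and 21.1 and 22.9 in the IgG libraries, so its 4 libraries lay close together. It was the member with the second most reads in the untreated IgG library after MRPS30.

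In the IgG libraries some members had no full read, and then only a bound can be given, against the same floor of 3 reads. Untreated, MRPS14 had 23 reads with EXOSC10 and 0 with IgG, at least 3.91-fold higher, MRPS28 had 12 and 0, at least 2.04-fold higher, and MRPL15 had 8 and 0, at least 1.36-fold higher. With doxycycline, MRPL22 had 36.6 reads with EXOSC10 and 0.405 with IgG, at least 3.07-fold higher. Between the IgG libraries, MRPL15 had 7 reads with doxycycline and 0 untreated, MRPS28 had 6 and 0, and MRPS14 had 4 and 0, at least 1.80-fold, 1.54-fold and 1.03-fold higher.

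**Figure D4:**
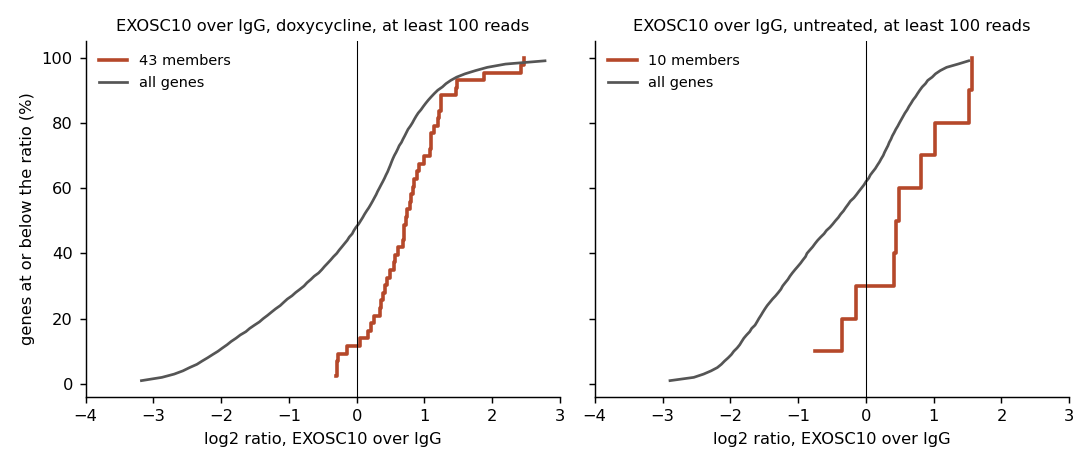
Cumulative share of genes at or below a given log2 ratio of EXOSC10 over IgG, with doxycycline (left) and untreated (right), for members and for all genes with at least 100 reads in the pair. The member curves, 43 genes with doxycycline and 10 untreated, lie to the right of the curves of all genes, with medians of 0.73 and 0.46 against 0.06 and -0.45. The minimum of 100 reads favours members that are high with EXOSC10.

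The size of the enrichment depends on the scaling, while its direction for the summed members did not. With TMM, library totals, totals outside ribosomal RNA, median-of-ratios factors and upper-quartile factors, the summed EXOSC10 over IgG ratio was 0.66, 3.11, 1.68, 0.59 and 0.84 with doxycycline and 0.49, 1.28, 1.5, 0.49 and 0.62 untreated. The same scalings gave 0.11, 1.12, 0.27, 0.02 and 0.19 for doxycycline over untreated with EXOSC10. For IgG they gave -0.06, -0.71, 0.09, -0.08 and -0.03, so that direction flips with totals outside ribosomal RNA. The median of all genes moved along with them: for EXOSC10 over IgG with doxycycline it was 0.06 with TMM and 2.47 with library totals, so each ratio is relative to the bulk of genes under that scaling.

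The change of enrichment, the doxycycline ratio of EXOSC10 over IgG minus the untreated one, was 0.17 (0.04 to 0.30) for the summed members. It included equality without the 5 members with the most reads, at 0.10 (-0.04 to 0.24). Over the 45 members with whole reads it was 0.27 (0.11 to 0.44), and over the 31 with fractions of reads 0.01 (-0.19 to 0.21). The median of the 2940 genes with 100 reads in each antibody's pair was -0.13. Small subunit mRNAs of proteins particular to mitochondria were at 0.68 (0.38 to 0.98), and those with a bacterial counterpart at -0.31 (-0.58 to -0.04). The large subunit classes were at 0.21 (0.01 to 0.42) and 0.19 (-0.08 to 0.45). With 100 reads in each antibody's pair, 4 members could be read singly. MRPS30 was 2-fold higher, at 1.59 (0.93 to 2.25), against a background of 4.83% of 2940 genes, and MRPS21 2-fold lower, at -1.15 (-1.82 to -0.48), against 10.6%. MRPS16 was at 0.14 and MRPS34 at 0.04.

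MRPS30 had 20.4 scaled CPM (280 reads) under doxycycline and 16.4 (86 reads) untreated with EXOSC10, and 11.3 (39 reads) under doxycycline and 27.8 (74 reads) untreated with IgG. The untreated IgG library was the highest of the 4, and EXOSC10 over IgG was 0.84 (0.37 to 1.38) with doxycycline and -0.75 (-1.22 to -0.29) untreated. The gene is on chromosome 5 (44808947 to 44815514). MRPS21 had 17.7 and 26.0 scaled CPM in the doxycycline and untreated EXOSC10 libraries, against 19.4 and 12.8 in the doxycycline and untreated IgG libraries. The untreated IgG library was its lowest, and EXOSC10 over IgG was 1.02 (0.48 to 1.61) untreated, the 1 of its enrichment ratios whose interval lay above 0.

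Other nuclear genes for mitochondrial translation were taken as 3 lists, and each had summed EXOSC10 over IgG ratios above 0 in both treatments. The 4 mitoribosomal proteins under other symbols, GADD45GIP1, PTCD3, CHCHD1 and AURKAIP1, had a summed EXOSC10 over IgG ratio of 0.83 (0.55 to 1.12) with doxycycline and 0.44 (0.15 to 0.74) untreated. The 23 assembly factors were at 0.67 (0.49 to 0.86) and 0.58 (0.37 to 0.79), and the 13 of 14 translation factors and RNA partners with an entry at 0.41 (0.24 to 0.57) and 0.62 (0.41 to 0.83). With doxycycline, the interval of the translation factors lay wholly below that of the members, 0.58 to 0.74, while those of the other lists overlapped it, and none of these differences was tested.

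For doxycycline over untreated with EXOSC10, the background was 3.91% of genes at least 2-fold lower and 6.25% higher, and the lists, read against it, held few genes. Among the 4 proteins under other symbols, GADD45GIP1 was at -1.03 (-1.47 to -0.62), the 1 of 4 at least 2-fold lower, PTCD3 at -0.20, AURKAIP1 at -0.07 and CHCHD1 at 0.30, and 0 were 2-fold higher. Of 8 assembly factors with 100 reads, 2 were 2-fold lower and 0 higher: MRM3, a methyltransferase of mitochondrial ribosomal RNA, at -1.26 (-1.90 to -0.71), and MPV17L2, at -1.23 (-1.82 to -0.71). NOA1, a GTPase, was highest at 0.50 (0.04 to 1.01), followed by the RNA helicase DHX30 at 0.41 (-0.00 to 0.85). Of 8 translation factors, GFM1, a mitochondrial elongation factor, was the 1 at least 2-fold lower, at -1.11 (-1.72 to -0.56), and 0 were higher, with SLIRP at -0.70, TACO1 at 0.17 and the ribosome recycling factor MRRF at 0.53 (-0.04 to 1.18).

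Cytosolic ribosomal protein mRNAs and nuclear-encoded respiratory chain mRNAs were the most similar groups by function. With doxycycline, 75 cytosolic ribosomal protein mRNAs with 100 reads had a median EXOSC10 over IgG ratio of 0.44, with 3 at least 2-fold higher and 13 lower, and 70 respiratory chain mRNAs had a median of 0.54, with 16 higher and 5 lower. The 43 mitoribosomal mRNAs had a median of 0.73, with 13 higher and 0 lower. They were 43 of 76, against 75 of 77 and 70 of 77 in the other groups, and the minimum of 100 reads favours mRNAs high with EXOSC10. Untreated, the medians were 0.34 over 73 cytosolic ribosomal protein mRNAs, 0.17 over 32 respiratory chain mRNAs and 0.46 over 10 mitoribosomal mRNAs. The summed ratios, which follow the mRNAs with the most reads, had the opposite sign to the medians in both groups. They were -0.70 with doxycycline and -1.01 untreated for the 77 cytosolic ribosomal protein mRNAs, and -1.22 and -1.15 for the 77 respiratory chain mRNAs. The members' summed ratios were 0.66 and 0.49, and no test of these differences was made.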

How the data were processed

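The authors deposited 1 table of CPM values (reads relative to the library total) for 24015 gene entries in 4 libraries. Its name calls it raw counts, but most values, less a constant of 0.0001 CPM, are multiples of a fixed step per library. That step gave the reads, which were whole within 0.05 reads for 67.6% to 74.0% of genes and fractions for the rest. Per the submitters' processing notes, STAR, Partek and hg38 were used, with no settings or counting rule stated there. The tests were planned for CPM. Entries of a symbol were summed (25 members had several, at most 4), and no column belonged to another sample.

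Libraries were scaled by the trimmed mean of M values, with trims of 30% on the ratio and 5% on the level, written in Python 3.11.15 with numpy 2.4.6, pandas 2.3.3 and scipy 1.17.1 and tested on simulated data. A 2-fold difference was counted only where the compared libraries together held 100 reads. Intervals use the Clopper-Pearson formula (95%), which is exact for whole reads but not for fractions of reads. Those of the change of enrichment are instead 95% normal approximations from the read counts. All intervals cover counting error only, with a floor of 3 reads for a library at 0. With 1 library a group no difference could be tested. The members, subunit classes, lists and letter strings were chosen with earlier results of these data known. Genes named are the 6 highest and 6 lowest per comparison with 100 reads, DAP3, the 3 with the most reads per subunit class, the 2 highest and 2 lowest of each other list, those at 0 in a library, and those the counts single out.

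The alternatives were 4 other scalings, minimums of 20 and 500 reads, a pseudocount of 1 CPM, 1 entry per symbol, thinning to the smallest total outside ribosomal RNA (20 draws), and genes with whole reads. A mean level of at least 5 CPM in place of the read minimum was added after seeing the data. Of the 76 members, 17 overlap another gene of the table in RefSeq, and no source used here states whether counting used strand, so sums with those genes are given where they bear on a named member.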

Additional observations from a re-analysis of the deposited data

Results flagged for a closer look

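In 5 members the libraries gave opposite directions in comparisons of the same kind, each with an interval that leaves out 0. None of these differences was tested, since each group has 1 library, and no explanation was tested. The share of all genes that meet the same rule is not given, so the count of 5 has no background and does not set the members apart. EXOSC10 over IgG was -1.04 with doxycycline and 1.06 untreated for MRPL17, of the large subunit, -0.93 and 3.64 for MRPS24, and 0.84 and -0.75 for MRPS30. Doxycycline over untreated was 0.72 with EXOSC10 and -1.31 with IgG for MRPL4, -1.55 and 3.02 for MRPS24, and -0.69 and 2.72 for MRPS5. In the untreated IgG library MRPS24 had 2 reads and MRPS5 had 2.01, and MRPL17 had 43 and 46 reads with EXOSC10, doxycycline and untreated, and 23 and 11 with IgG.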

How the results depend on the processing

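No paired analysis was possible because each group has 1 library. Of the values recomputed, 102 stayed within 1.5 times the count or within the counting error of the summed ratio, 50 moved further and 4 turned sign, all 4 in the IgG comparison, which rests on 4 members at 100 reads; apart from fewer or more genes passing, the cause was not tested. The number of members passing changed with the setting, and no share of all genes is given for the counts that follow, so they have no background. For EXOSC10, doxycycline over untreated, the 5 of 52 members called higher became 30 of 52 with library totals, where the median of all genes was 0.97. They became 3 of 52 with median-of-ratios factors, 2 of 52 with a pseudocount of 1 CPM and 11 of 73 at 20 reads. They became 0 of 1 at 500 reads, 0 of 27 after thinning and 1 of 45 with a mean level of 5 CPM. The 3 called lower became 0 of 52 with library totals, 1 of 52 with totals outside ribosomal RNA and 5 of 73 at 20 reads. They became 0 of 1 at 500 reads and 1 of 27 after thinning. The members' median minus that of all genes, 0.12, was 0.0752 with 1 entry per symbol, 0.18 at 20 reads, 0.65 at 500 reads, 0.33 after thinning and 0.28 with whole reads. For IgG, the 0 higher and 1 lower of 4 became 8 and 6 of 54 at 20 reads and 6 and 4 of 45 at 5 CPM. Its median difference of 0.19 was -0.0539 at 20 reads, -0.0155 with 1 entry per symbol, -0.0550 after thinning, 0.42 with whole reads and -0.0417 at 5 CPM. For EXOSC10 over IgG untreated, the 3 of 10 higher became 7 of 10 with library totals and 7 of 10 with totals outside ribosomal RNA. They became 23 of 62 at 20 reads, 1 of 6 with whole reads and 15 of 45 at 5 CPM. The 0 lower became 4 of 62 at 20 reads and 2 of 45 at 5 CPM. The median difference of 0.91 was 0.51 at 20 reads, 1.14 with 1 entry and 0.60 at 5 CPM. With doxycycline, the 13 of 43 higher became 43 of 43 with library totals and 38 of 43 with totals outside ribosomal RNA. The medians of all genes were then 2.47 and 1.07. The 13 became 22 of 73 at 20 reads, 0 of 1 at 500 reads, 4 of 14 after thinning and 7 of 25 with whole reads. The 0 lower became 1 of 73 at 20 reads and 1 of 45 at 5 CPM. The median difference of 0.67 was 0.42 at 20 reads, 1.55 at 500 reads and 1.05 after thinning. For the change of enrichment, the 1 of 4 higher became 3 of 4 with library totals, 10 of 54 at 20 reads and 6 of 45 at 5 CPM. The 1 of 4 lower became 0 of 4 with library totals, 11 of 54 at 20 reads and 10 of 45 at 5 CPM. It became 0 of 3 with 1 entry and 0 of 3 after thinning. At 500 reads no member was left for IgG, for EXOSC10 over IgG untreated or for the change. Depth limits the IgG libraries most, where a member had a median of 17.0 reads with doxycycline and 12 untreated.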
